A study of Mus musculus with 9 samples.

Results

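The genes described here are 36 mouse DNA repair genes, taken from textbook repair pathways: the kinases that sense DNA damage, homologous recombination, end joining, mismatch repair, base excision repair, nucleotide excision repair and the Fanconi anaemia pathway. A gene was measured through probe sets that carry its symbol alone in the array's annotation, and where a gene had several the one brightest on average was read. Of the 36 genes, 35 had such a probe set and 34 passed a filter on low signal, out of 12586 genes tested. Tdg, the thymine DNA glycosylase, is not analysed here because each of its probe sets carries several symbols. Xrcc5, which encodes the Ku80 subunit of the end-joining complex, failed the filter and has no test; its signal was 39.3, 5.88 and 34.3 in STING knockout cells given DNA, 8.2, 29.8 and 10.9 in wild-type cells given DNA, and 32.1, 36.2 and 27.6 in wild-type cells in media.

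The cells were dendritic cells grown from 129/SvEv bone marrow with the growth factor GM-CSF over 9 to 12 days. Each of 3 groups had 3 arrays: STING knockout cells given tumor-cell DNA, wild-type cells given the same kind of DNA, and wild-type cells in media. DNA was purified from tumor cells and carried in with Lipofectamine, a lipid transfection reagent, for 7 h. Neither knockout cells in media nor reagent-only cells are analysed here, so an effect of the reagent and an effect of the DNA cannot be told apart, and a genotype difference without DNA was not measured. The labels do not say whether arrays of a group came from separate mice or cultures, so the p-values measure the spread between these arrays, which may be technical.

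DNA repair enzymes cut out damaged bases, rejoin broken strands and correct copying errors, and the kinases Atm, Atr and Prkdc relay breaks and stalled forks to checkpoint effectors such as Chek1 and Chek2. Many repair genes are expressed most in cycling cells, because replication creates substrates for them. STING, the product of Sting1, is the adaptor through which DNA in the cytosol induces type I interferon, and several proteins of the repair machinery, among them DNA-PK, Ku and Rad50, have been described as partners in sensing such DNA.

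The labels were checked first. The Sting1 signal was 246, 336 and 327 in knockout cells given DNA, 2260, 1060 and 1160 in wild-type cells given DNA, and 1520, 1080 and 646 in media, so the knockout arrays lay below all others. Ifnb1, which encodes interferon beta, read 43.3, 62.5 and 48.8 in knockout cells given DNA, 21600, 5210 and 10300 in wild-type cells given DNA, and 50.2, 47.3 and 72.4 in media. The dendritic cell markers Itgax (4110 to 6170 over the 9 arrays) and Cd74 (16300 to 23800) were bright, as was the macrophage marker Csf1r (18300 to 24900), while Flt3 lay between 5.74 and 55.1. Each array had a trimmed mean signal of 500.0, set by the submitters' scaling. The arrays are bulk samples, so fewer cells of a type and less RNA per cell cannot be told apart.

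In wild-type cells given DNA, most of the repair genes that were called were lower than in media. Of the 34 members tested, 17 were lower and 4 higher in wild-type cells given DNA than in media at an adjusted p under 0.05 in limma, and 13 were not called. Among all 12586 genes, 23.6% were called lower and 9.94% higher. The median difference was -0.73 on the log2 scale over the members and -0.20 over all genes. The lower members included Chek2, Xrcc6, Apex1, Msh6 and Pms2, and the 4 higher members were Fanca, Polb, Msh3 and Atm. Differences are in log2(signal + 16), which shrinks changes of dim probe sets, and SE stands for the standard error.

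Most of the genotype calls ran the other way. In knockout cells given DNA, 15 members were higher and 4 lower than in wild-type cells given DNA, against 21.8% of all genes called higher and 9.73% called lower. The median difference was 0.59 over the members and 0.20 over all genes. Each of the 15 higher members was among the 17 lower ones in wild-type cells, and the 4 lower members were Fanca, Polb, Msh3 and Atm. These comparisons share the wild-type arrays given DNA, so opposite signs are partly built in and the values are given side by side. Xpa and Lig4 were lower with DNA in wild-type cells but were not called between genotypes.

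Set against wild-type media, knockout cells given DNA had 0 members called in either direction, against 0.167% of all genes called higher and 0.262% called lower. At an unadjusted p under 0.05 in limma, 1 of 34 members passed, against 948 of all 12586 genes. The median difference was -0.09 over the members and -0.01 over all genes, and single differences ran between -0.53 (Xpa) and 0.50 (Fancd2). The 95% intervals reached between 0.37 and 1.59 to either side, with a median of 0.59, so differences of moderate size were not detectable for many members. This comparison changes both genotype and DNA at once.

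**Figure D1:**
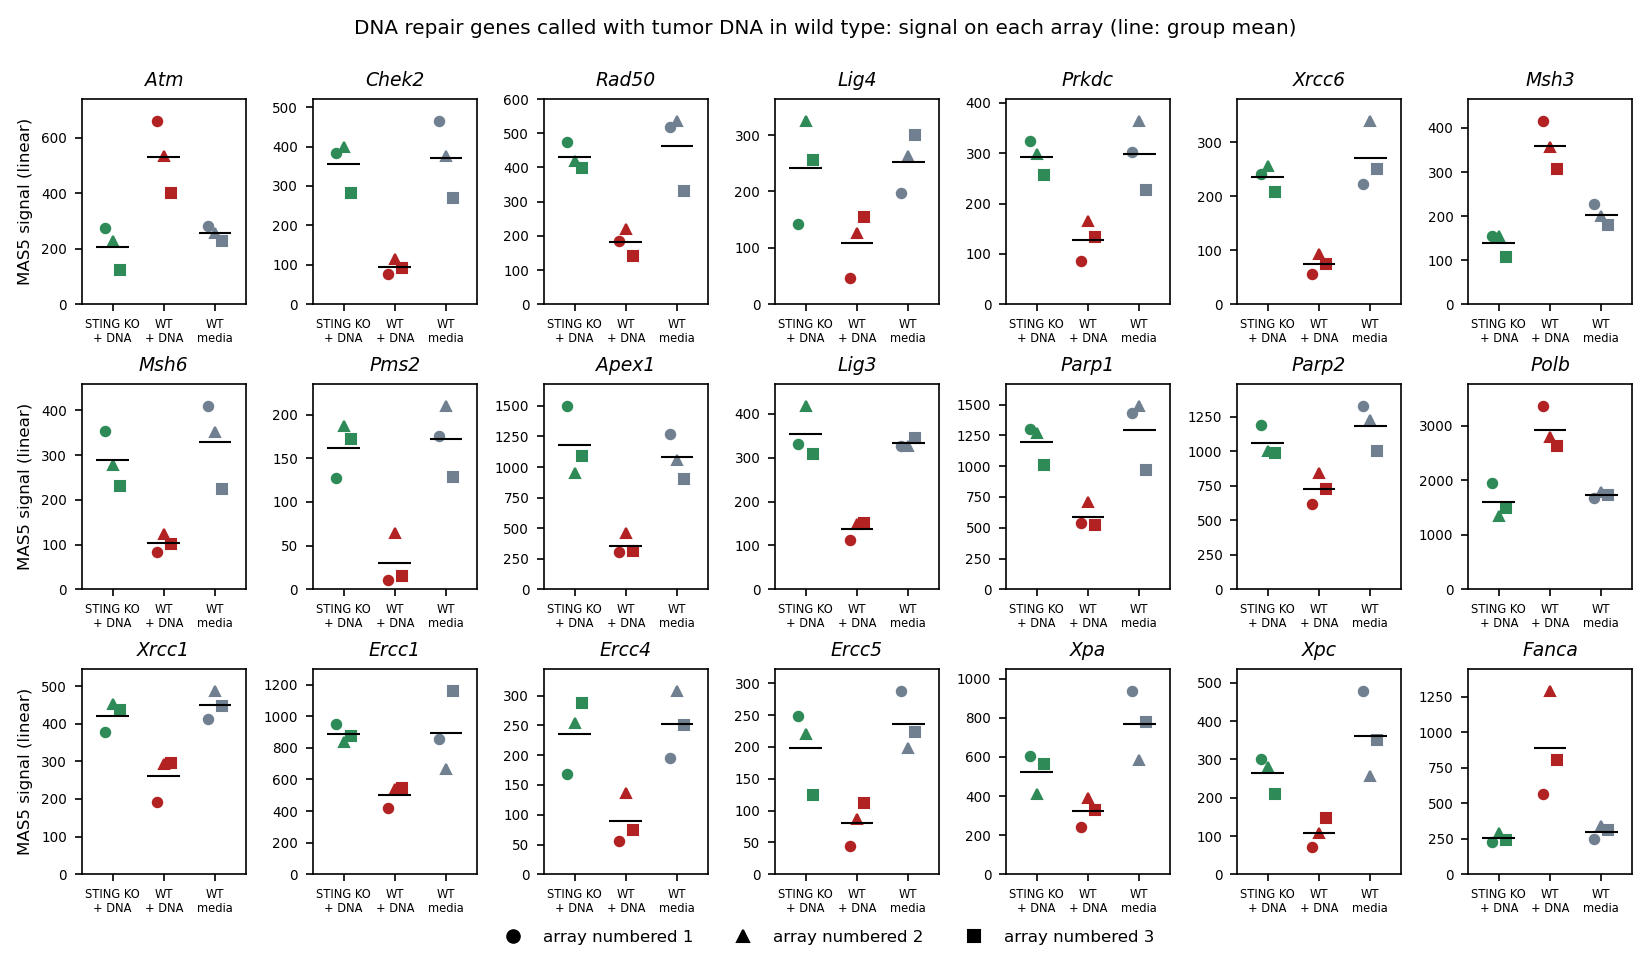
MAS5 signal (linear axis from 0) of each of the 21 members called in wild-type cells, by array, with STING knockout cells given DNA on the left, wild-type cells given DNA in the middle and wild-type media on the right; the marker shape gives the array number and the line the group mean. In 17 panels the mean of the middle group is lowest, and in those of Fanca, Polb, Msh3 and Atm it is highest. In the panel of Lig4 the left and middle groups overlap. The panels were chosen by the call against media, so the order of the middle and right groups follows from that choice.

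The promoters of Chek2, Apex1, Xrcc6 and Lig3 are shown because these members had the smallest summed rank of p over both comparisons, and that of Fanca, added after its values were seen, because it moved the other way. Sequences are from RefSeq (GRCm38.p6), run from 250 bases before to 50 after the gene start, and read 5′ to 3′ on the gene's strand. Capitals mark matches to the motifs searched. The windows are Chek2 at chr5:110839733-110840032 (plus strand), Apex1 at chr14:50924699-50924998 (plus), Xrcc6 at chr15:82016119-82016418 (plus), Lig3 at chr11:82780859-82781158 (plus) and Fanca at chr8:123318527-123318826 (minus).
Chek2: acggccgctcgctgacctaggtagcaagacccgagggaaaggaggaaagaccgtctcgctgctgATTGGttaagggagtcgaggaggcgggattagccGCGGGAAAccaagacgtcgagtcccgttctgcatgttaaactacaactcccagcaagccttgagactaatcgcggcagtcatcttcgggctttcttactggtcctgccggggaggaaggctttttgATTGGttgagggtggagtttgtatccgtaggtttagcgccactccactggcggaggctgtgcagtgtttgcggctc
Apex1: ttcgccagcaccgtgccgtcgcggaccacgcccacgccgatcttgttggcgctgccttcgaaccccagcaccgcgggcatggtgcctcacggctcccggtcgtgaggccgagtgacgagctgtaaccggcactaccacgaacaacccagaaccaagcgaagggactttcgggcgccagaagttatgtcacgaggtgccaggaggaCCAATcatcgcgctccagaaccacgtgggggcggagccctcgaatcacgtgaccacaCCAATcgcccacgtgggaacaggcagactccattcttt
Xrcc6: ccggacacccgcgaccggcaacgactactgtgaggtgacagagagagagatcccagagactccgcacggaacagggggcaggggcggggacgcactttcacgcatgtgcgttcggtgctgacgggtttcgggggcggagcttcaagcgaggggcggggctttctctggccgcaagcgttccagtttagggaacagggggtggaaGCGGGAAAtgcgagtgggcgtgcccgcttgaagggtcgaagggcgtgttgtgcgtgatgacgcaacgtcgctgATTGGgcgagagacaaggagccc
Lig3: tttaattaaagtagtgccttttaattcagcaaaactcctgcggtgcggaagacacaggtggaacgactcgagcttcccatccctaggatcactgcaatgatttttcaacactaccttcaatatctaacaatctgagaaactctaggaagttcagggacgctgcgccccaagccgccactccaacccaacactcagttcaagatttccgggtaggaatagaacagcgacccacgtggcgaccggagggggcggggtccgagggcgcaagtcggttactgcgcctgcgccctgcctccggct
Fanca: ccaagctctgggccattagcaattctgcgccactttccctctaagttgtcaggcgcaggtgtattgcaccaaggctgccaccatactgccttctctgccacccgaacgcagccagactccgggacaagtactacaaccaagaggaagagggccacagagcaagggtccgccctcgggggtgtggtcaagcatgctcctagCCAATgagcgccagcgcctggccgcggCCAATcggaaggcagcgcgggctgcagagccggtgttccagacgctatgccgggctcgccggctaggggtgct

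Motifs were searched on both strands of these windows. An E2F site, bound by factors that drive genes of the S phase, was taken as any of TTTCCCGC, TTTGGCGC, TTTCGCGC and TTTGCCGC, counted together. Of the 35 members on the array, 28 had a RefSeq promoter in the table used, and 5 of these 28 (17.9%) held an E2F site: Brca2, Chek2, Msh3, Msh6 and Xrcc6. Over all 27025 promoters the share was 2.32%. The core of the interferon response element, GAAANNGAA, lay in 6 of 28 (21.4%), namely Brca2, Chek1, Ercc4, Pms2, Xrcc1 and Xrcc5, and in 8.57% of all promoters. The CCAAT box lay in 16 of 28 (57.1%) and in 37.9% of all, and the cyclic AMP element TGACGTCA in 1 (3.57%, Brca2) and in 1.88% of all. Among the sequences printed, Chek2 held an E2F site at position -152 and CCAAT boxes at -186 and -26, all on the reverse strand, counting from the gene start. Xrcc6 held a reverse E2F site at -46 and a reverse CCAAT box at 28. Apex1 held CCAAT boxes at -45 and 13 and Fanca at -50 and -23. Lig3 held none of these letters in its window. Promoters of Polb, Ercc3, Nbn, Rad50, Prkdc, Xpc and Fancd2 were not in the table. These are matches of letters, not sites shown to be bound, and a link between motif and direction was not tested. Of the E2F-matched members, Chek2, Msh6 and Xrcc6 were lower with DNA in wild-type cells, Msh3 was higher and Brca2 was not called.

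Among the damage sensors and checkpoint kinases, 1 of 6 members was higher (16.7%) and 2 were lower (33.3%) in wild-type cells given DNA. The shares over all genes were 9.94% and 23.6%. Each pathway holds few members, so its counts are not read as a trait of that pathway. Chek2, the effector kinase downstream of Atm, gave 383, 400 and 281 in knockout cells given DNA, 76, 114 and 91 in wild-type cells given DNA, and 465, 377 and 270 in media. The wild-type arrays given DNA did not overlap either other group. Chek2 differed by -1.80 (SE 0.25, adjusted p = 0.000959) with DNA in wild-type cells and by 1.76 (SE 0.25, adjusted p = 0.000884) between knockout and wild type under DNA. Rad50, a component of the MRN complex that holds broken ends, gave 473, 418 and 397 in knockout cells given DNA, 186, 221 and 142 in wild-type cells given DNA, and 517, 536 and 332 in media. Its wild-type arrays given DNA likewise lay below both other groups. Rad50 differed by -1.25 (SE 0.23, adjusted p = 0.00348) and 1.18 (SE 0.23, adjusted p = 0.00425) in the same comparisons.

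Atm, the apical kinase of the break response, moved the other way. Its signal was 276, 227 and 122 in knockout cells given DNA, 661, 533 and 401 in wild-type cells given DNA, and 282, 258 and 228 in media, so every wild-type array given DNA lay above all others. Atm differed by 0.99 (SE 0.29, adjusted p = 0.0264) with DNA in wild-type cells and by -1.33 (SE 0.29, adjusted p = 0.00705) between genotypes. The call with DNA was lost on leaving out all arrays numbered 1 (adjusted p = 0.0786) or 2 (0.144), either of the first 2 wild-type arrays given DNA (0.0892 and 0.0607), or media array 2 or media array 3 (0.0618 and 0.0771). The genotype call was lost on leaving out number 2 (adjusted p = 0.0615).

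Atr, the kinase of stalled forks, averaged 374 ± 89.3 in knockout cells given DNA, 258 ± 34.5 in wild-type cells given DNA and 410 ± 71.9 in media (SD, n = 3 each). Its difference with DNA, -0.63 (SE 0.22), had an adjusted p = 0.0503, and that between genotypes, 0.49, an adjusted p = 0.117. With the array number as a block the adjusted p was 0.0166 and 0.0479. Nbn, another MRN subunit, differed by -0.43 (adjusted p = 0.123) with DNA and 0.36 (0.187) between genotypes; without wild-type DNA array 1 these were -0.61 (0.0297) and 0.55 (0.0443). Chek1, the effector kinase downstream of Atr, ranged from 23.9 to 219 over all 9 arrays and was highest on the array numbered 2 in each group. It differed by -0.65 (SE 0.71) with DNA and was not called.

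Homologous recombination was represented by Brca1 and Brca2, and 0 of these 2 members was called. Brca1, which licenses end resection, averaged 130 ± 60.5 in knockout cells given DNA, 94.6 ± 54.9 in wild-type cells given DNA and 126 ± 99.5 in media (SD, n = 3 each). Brca2, which acts in strand exchange, averaged 136 ± 44.9 in knockout cells given DNA, 146 ± 42.0 in wild-type cells given DNA and 155 ± 50.9 in media (SD, n = 3 each). Their differences with DNA were -0.26 (SE 0.51) and -0.07 (SE 0.31). Both were highest on the array numbered 2 in each group.

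End joining rejoins broken ends without a template. Of 4 members tested, 3 were lower with DNA in wild-type cells, against 23.6% of all genes. In knockout cells under DNA, 2 were higher than in wild type, against 21.8% of all genes. Xrcc6, the Ku70 subunit that binds the ends, gave 241, 256 and 207 in knockout cells given DNA, 56.5, 92.2 and 74.1 in wild-type cells given DNA, and 223, 339 and 251 in media. All wild-type arrays given DNA lay below the others. Xrcc6 differed by -1.67 (SE 0.23, adjusted p = 0.00101) with DNA and by 1.49 (SE 0.23, adjusted p = 0.00138) between genotypes. Prkdc, the catalytic subunit of DNA-PK, gave 324, 298 and 256 in knockout cells given DNA, 85.9, 165 and 134 in wild-type cells given DNA, and 303, 364 and 227 in media, again with the wild-type arrays given DNA lowest. Prkdc differed by -1.14 (SE 0.26, adjusted p = 0.00854) and 1.13 (SE 0.26, adjusted p = 0.00882). Its call with DNA ended without the arrays numbered 1 (adjusted p = 0.057) or 3 (0.0517), and that between genotypes likewise (0.0667 and 0.0628).

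Lig4, the ligase of this pathway, averaged 242 ± 91.7 in knockout cells given DNA, 109 ± 56.2 in wild-type cells given DNA and 253 ± 52.2 in media (SD, n = 3 each). It differed by -1.21 (SE 0.40, adjusted p = 0.0424) with DNA and by 1.10 (SE 0.40, adjusted p = 0.0641) between genotypes. The call with DNA was near the threshold: it ended under quantile normalization (adjusted p = 0.0817), with no filter (0.0641), with no intensity trend (0.0512), with centring on the genes tested (0.141) and in 8 leave-outs, which were numbers 2 and 3, each media array, the first and second wild-type array given DNA and the third knockout array (adjusted p from 0.0516 to 0.132). With the block the genotype difference had an adjusted p = 0.00459, and it also passed under median centring (0.0363) and without number 1 (0.0217), the first knockout array (0.0324) or the third wild-type array given DNA (0.0421). Xrcc4, the partner of Lig4, differed by -0.31 (SE 0.27) with DNA and by 0.03 (SE 0.27) between genotypes and was not called.

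In mismatch repair, which corrects copying errors, 2 of 3 members fell and 1 rose with DNA in wild-type cells. The shares of all genes called lower and higher were 23.6% and 9.94%. All 3 members differed the other way in knockout cells under DNA, where 21.8% of all genes were called higher and 9.73% lower. Msh6, which helps to find mispaired bases, gave 354, 279 and 231 in knockout cells given DNA, 84.3, 124 and 101 in wild-type cells given DNA, and 410, 351 and 224 in media. Msh6 differed by -1.50 (SE 0.26, adjusted p = 0.00276) with DNA and by 1.35 (SE 0.26, adjusted p = 0.00417) between genotypes. The wild-type arrays given DNA did not overlap either other group. Msh3, which helps to find larger loops, gave 156, 155 and 107 in knockout cells given DNA, 416, 357 and 306 in wild-type cells given DNA, and 227, 201 and 180 in media. The wild-type arrays given DNA were thus the highest for Msh3 and the lowest for Msh6. Msh3 differed by 0.78 (SE 0.21, adjusted p = 0.0189) with DNA and by -1.28 (SE 0.21, adjusted p = 0.00179) between genotypes. The knockout arrays of Msh3 also lay below media, by -0.51 (SE 0.21), with an adjusted p = 0.611. Averaging the probe sets of Msh3 moved the genotype difference to -0.82 (adjusted p = 0.0267). The call for Msh3 with DNA was lost when its probe sets were averaged (0.49, adjusted p = 0.148), on leaving out number 1, 2 or 3 in all groups (0.0669, 0.118 and 0.0807), and on leaving out the first wild-type array given DNA (0.0595) or media array 2 or media array 3 (0.0507 and 0.0619).

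Pms2, which nicks the strand to be repaired, gave 127, 187 and 172 in knockout cells given DNA, 10.5, 65 and 15.8 in wild-type cells given DNA, and 176, 210 and 129 in media. Every wild-type array given DNA lay below the others, and 2 of those 3 signals were under the added offset of 16. Pms2 differed by -2.18 (SE 0.40, adjusted p = 0.00344) with DNA and by 2.11 (SE 0.40, adjusted p = 0.00368) between genotypes. Its size depended on the offset, with -1.35 and 1.30 at an offset of 64, and -2.93 and 2.86 with none. Averaging its probe sets gave -0.92 (adjusted p = 0.0654) and 0.91 (0.0726), and without the arrays numbered 3 the calls also ended (adjusted p = 0.0535 and 0.077).

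Base excision repair removes single damaged bases, and its later steps also close single-strand breaks. With DNA in wild-type cells 5 of 9 members were lower and 1 was higher, against 23.6% and 9.94% of all genes. Between genotypes 5 were higher and 1 lower, against 21.8% and 9.73% of all genes. Apex1, the endonuclease that cuts at the abasic site, gave 1500, 954 and 1090 in knockout cells given DNA, 304, 461 and 310 in wild-type cells given DNA, and 1270, 1060 and 906 in media. Apex1 differed by -1.56 (SE 0.23, adjusted p = 0.00138) with DNA and by 1.68 (SE 0.23, adjusted p = 0.000816) between genotypes. Its wild-type arrays given DNA lay below all others, and the remaining probe sets of Apex1 read -2.48 and -1.73 with DNA. Lig3, a ligase that seals the nick, gave 332, 418 and 309 in knockout cells given DNA, 113, 150 and 151 in wild-type cells given DNA, and 327, 327 and 346 in media. Lig3 differed by -1.19 (SE 0.19, adjusted p = 0.0019) and 1.26 (SE 0.19, adjusted p = 0.00123), and its wild-type arrays given DNA lay below the rest.

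Parp1, the break sensor that makes poly(ADP-ribose), gave 1300, 1270 and 1010 in knockout cells given DNA, 537, 712 and 521 in wild-type cells given DNA, and 1430, 1490 and 967 in media. Parp1 differed by -1.10 (SE 0.21, adjusted p = 0.00395) with DNA and by 1.0 (SE 0.21, adjusted p = 0.00592) between genotypes. Its 3 other probe sets also gave negative differences with DNA, between -1.56 and -0.88. Parp2, its close relative, averaged 1060 ± 110 in knockout cells given DNA, 729 ± 111 in wild-type cells given DNA and 1180 ± 168 in media (SD, n = 3 each). It differed by -0.69 (SE 0.18, adjusted p = 0.0146) with DNA and by 0.54 (SE 0.18, adjusted p = 0.0421) between genotypes. The scaffold Xrcc1 averaged 422 ± 39.5 in knockout cells given DNA, 261 ± 59.8 in wild-type cells given DNA and 449 ± 37.9 in media (SD, n = 3 each), and differed by -0.77 (SE 0.20, adjusted p = 0.0158) and 0.68 (SE 0.20, adjusted p = 0.0271). Both sit near the threshold. With centring on the genes tested, Parp2 differed by -0.26 (adjusted p = 0.232) with DNA and 0.14 (0.527) between genotypes, and Xrcc1 by -0.34 (0.167) and 0.28 (0.246).

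The calls for Parp2 and Xrcc1 also ended when arrays were left out. For Parp2 with DNA these were the arrays numbered 1, 2 or 3 (adjusted p = 0.0809, 0.0698 and 0.0755) and media array 1 (0.0516). Between genotypes the call for Parp2 ended in 9 leave-outs, namely numbers 1, 2 and 3, each knockout array, wild-type DNA arrays 1 and 3 and the second media array, and reached an adjusted p of 0.193, and under 6 other settings. For Xrcc1 with DNA they were the arrays numbered 2 or 3 (0.085 and 0.0962) and media array 2 (0.0539), and quantile normalization also ended it (0.0805). Between genotypes the call for Xrcc1 ended in 6 leave-outs, namely numbers 1, 2 and 3, the first wild-type array given DNA and knockout arrays 2 and 3, and reached an adjusted p of 0.138, with quantile normalization (0.127) and with only the arrays of both groups in the fit (0.0536).

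Polb, the polymerase that fills the gap, rose. It gave 1950, 1350 and 1490 in knockout cells given DNA, 3360, 2790 and 2620 in wild-type cells given DNA, and 1670, 1780 and 1730 in media, with the wild-type arrays given DNA above all others. Polb differed by 0.75 (SE 0.17, adjusted p = 0.00806) with DNA and by -0.88 (SE 0.17, adjusted p = 0.00371) between genotypes. Its probe sets disagreed: the others differed by 0.64, -0.93 and -0.17 with DNA and by -0.74, -0.18 and -0.20 between genotypes. The mean over all probe sets of Polb was 0.07 (adjusted p = 0.794) and -0.50 (0.0688). The probe set read and that with 0.64 were bright (mean log2 10.97 and 10.9), and those with -0.93 and -0.17 were dimmer (6.9 and 7.1). The direction with DNA thus differed between the bright and the dimmer probe sets. Both calls also ended without the arrays numbered 2 (0.0517 and 0.0541) or 3 (0.0735 and 0.0625).

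Of the member glycosylases, Ung and Ogg1 were tested and neither was called. Ung, which removes uracil, differed by -0.86 (SE 0.38, adjusted p = 0.109) with DNA and by 0.59 (SE 0.38, adjusted p = 0.275) between genotypes; with the block the first had an adjusted p = 0.0177. Without wild-type DNA array 2, Ung passed in both (-1.29, 0.0161, and 1.01, 0.0409), and without the arrays numbered 2 it passed with DNA (0.0464). Ogg1, which removes oxidised guanine, differed by -0.20 (SE 0.32) and 0.45 (SE 0.32). Lig1, the replicative ligase, differed by -0.21 (SE 0.40) and 0.50 (SE 0.40, adjusted p = 0.381); with the block the second had an adjusted p = 0.0458.

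Nucleotide excision repair cuts out bulky lesions. With DNA in wild-type cells 5 of 7 members were lower and 0 higher, against 23.6% and 9.94% of all genes. Between genotypes 4 were higher and 0 lower, against 21.8% and 9.73% of all genes. Xpc, which recognises the lesion, gave 301, 281 and 211 in knockout cells given DNA, 72, 109 and 146 in wild-type cells given DNA, and 479, 256 and 352 in media. The wild-type arrays given DNA were the lowest. Xpc differed by -1.60 (SE 0.29, adjusted p = 0.00324) with DNA and by 1.20 (SE 0.29, adjusted p = 0.0119) between genotypes. The genotype call was lost with centring on the genes tested (0.80, adjusted p = 0.0517) and on leaving out number 1 (0.0544) or 2 (0.0744). Xpa, which verifies the lesion, gave 604, 410 and 563 in knockout cells given DNA, 243, 392 and 331 in wild-type cells given DNA, and 938, 587 and 779 in media. The wild-type arrays given DNA lay below all others, and the knockout arrays overlapped those of media. Xpa differed by -1.21 (SE 0.25, adjusted p = 0.00513) with DNA and by 0.69 (SE 0.25, adjusted p = 0.0581) between genotypes, where the block gave an adjusted p = 0.0442. Without the arrays numbered 3 the call with DNA ended (0.077), and without those numbered 2, or knockout or wild-type DNA array 2, the genotype difference passed (0.0382, 0.048 and 0.0433).

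The incision enzymes fell as well. Ercc4, which cuts with Ercc1 on the 5′ side, gave 168, 254 and 287 in knockout cells given DNA, 55.7, 136 and 74.9 in wild-type cells given DNA, and 196, 308 and 251 in media, and again the wild-type arrays given DNA were the lowest. Ercc4 differed by -1.40 (SE 0.32, adjusted p = 0.0085) with DNA and by 1.31 (SE 0.32, adjusted p = 0.0119) between genotypes. The other probe sets of Ercc4 gave -1.06, -0.56 and -0.26 with DNA and 0.79, 0.52 and 0.08 between genotypes, and averaging all moved the values to -0.82 (adjusted p = 0.014) and 0.67 (0.0323). Its calls ended without the arrays numbered 3 (0.103 and 0.164), and that between genotypes also without knockout array 3 (0.05). Its partner Ercc1 averaged 887 ± 56.4 in knockout cells given DNA, 503 ± 73.1 in wild-type cells given DNA and 895 ± 253 in media (SD, n = 3 each), and differed by -0.79 (SE 0.21, adjusted p = 0.0191) and 0.81 (SE 0.21, adjusted p = 0.0174). The probe sets of Ercc1 disagreed in part: the others gave -0.42 and -0.06 with DNA, and 0.51 for one below the filter, which between genotypes gave -0.48. The mean over those past the filter gave -0.42 (adjusted p = 0.165) and 0.56 (0.0765).

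Ercc5, which cuts on the 3′ side, averaged 198 ± 64.8 in knockout cells given DNA, 80.8 ± 34.4 in wild-type cells given DNA and 236 ± 46.2 in media (SD, n = 3 each). It differed by -1.43 (SE 0.34, adjusted p = 0.00985) with DNA and by 1.16 (SE 0.34, adjusted p = 0.0251) between genotypes. The call with DNA ended without the arrays numbered 1 (0.0599) or 2 (0.0535), and the genotype call without those numbered 1 (0.67, adjusted p = 0.16) or 2 (0.135), on leaving out the first wild-type array given DNA (0.0769) or the first or second knockout array (0.0798 and 0.0823), and with centring on the genes tested (0.0909). Ercc1 lost its calls with quantile normalization (0.105 with DNA and 0.0869 between genotypes), with centring on the genes tested (0.234 and 0.179) and in leave-outs. With DNA these were numbers 1 and 3, the first wild-type array given DNA and the third media array, with up to 0.136, and between genotypes numbers 1, 2 and 3, the first wild-type array given DNA and knockout arrays 1 and 3, with up to 0.121. The helicases of TFIIH were not called: Ercc3 differed by -0.01 (SE 0.17) with DNA and 0.09 (SE 0.17) between genotypes, and Ercc2 by 0.11 (SE 0.27) and -0.07 (SE 0.27).

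In the Fanconi anaemia pathway, which unhooks crosslinks between strands, 1 of 3 members was higher with DNA in wild-type cells and 1 lower between genotypes. The shares over all genes were 9.94% and 9.73%. Fanca, a subunit of the core complex, gave 229, 294 and 240 in knockout cells given DNA, 568, 1290 and 806 in wild-type cells given DNA, and 250, 341 and 309 in media. Every wild-type array given DNA lay above all others. Fanca differed by 1.45 (SE 0.28, adjusted p = 0.00393) with DNA and by -1.67 (SE 0.28, adjusted p = 0.00186) between genotypes, and its other probe set by 1.18 and -2.19. Both calls ended without the arrays numbered 3 (0.0649 and 0.0543). Fancc, another core subunit, differed by 0.59 (SE 0.27, adjusted p = 0.118) with DNA; it passed with the block (0.0346), with quantile normalization (0.88, 0.0204) and with centring on the genes tested (1.03, 0.012). The probe sets of Fancc disagreed in sign, with 0.54 and -0.58 for the others, and their mean gave 0.18 (adjusted p = 0.625). Fancd2, which the core complex ubiquitinates, differed by 0.32 (SE 0.39) with DNA and 0.18 (SE 0.39) between genotypes and was not called.

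**Figure D2:**
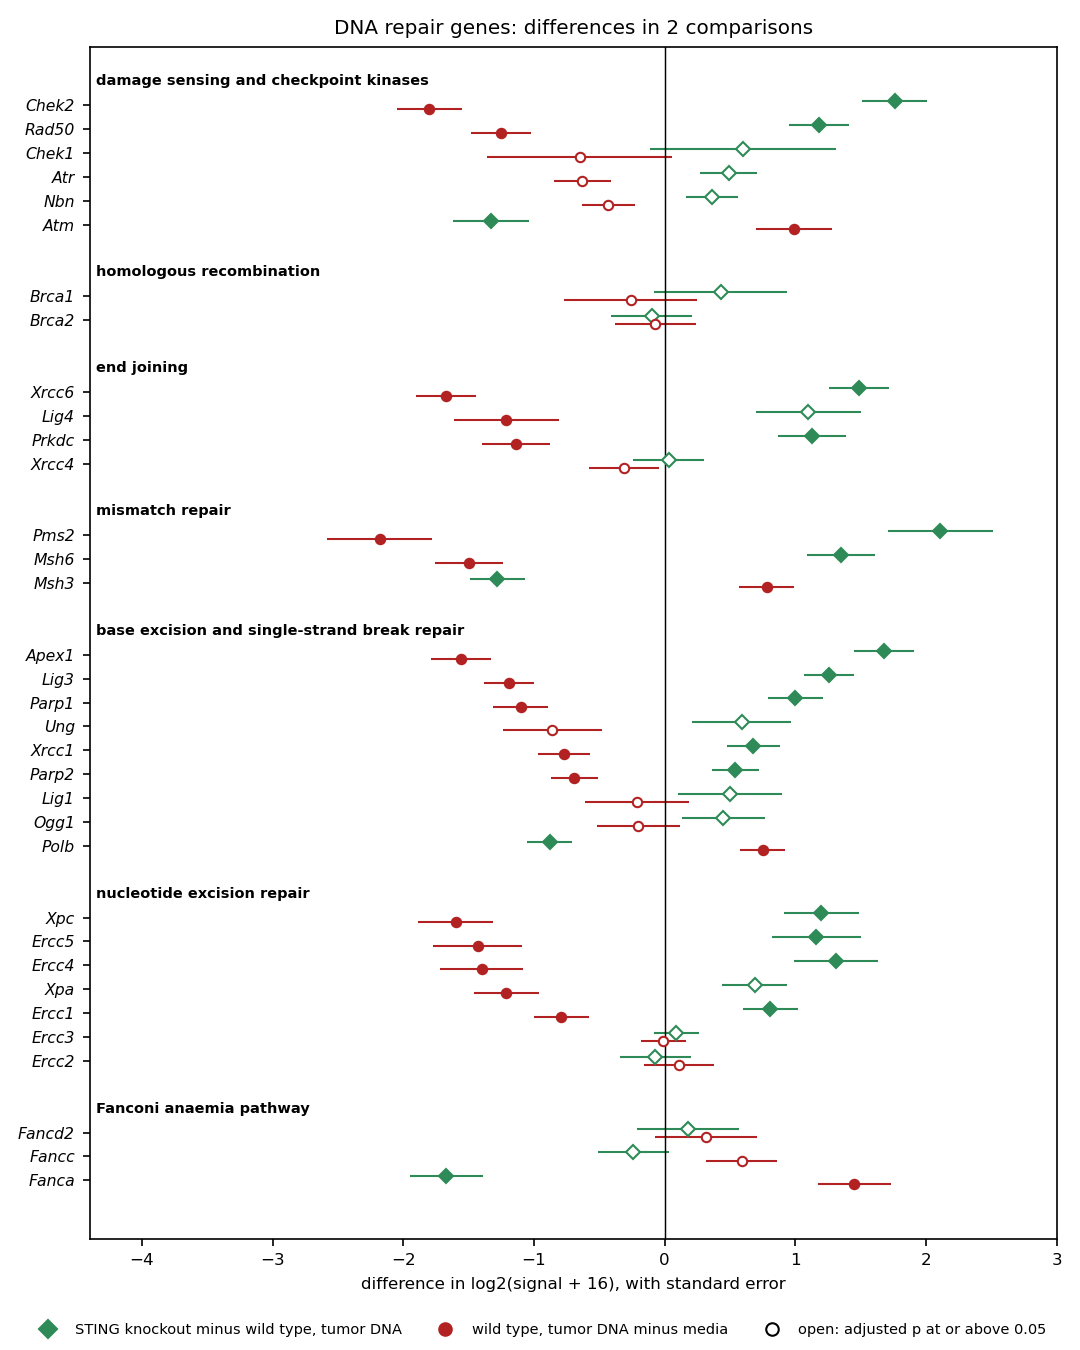
Difference in log2(signal + 16) of each tested member, with bars for 1 SE: green diamonds for knockout minus wild type under DNA and red circles for wild-type DNA minus media, open where the adjusted p is 0.05 or above. The red circles of 17 filled members lie left of 0 and those of Fanca, Polb, Msh3 and Atm right of it.

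The size of the shift rests on the scaling between arrays. With each array centred on the median of the genes tested, an alternative added after the data were seen, the median gene moved to 0.24 with DNA in wild-type cells, and 21.9% of all genes were called higher and 8.58% lower. The share of calls that were higher was then 71.9%, against 29.6% in the scaling used here. The members kept the opposite lean, with 5 higher and 13 lower and a median of -0.30. The differences with DNA shrank to -0.82 for Rad50, -0.76 for Lig3, -0.67 for Parp1, -0.70 for Prkdc and -0.78 for Xpa, which stayed called, and grew to 1.18 for Polb and 1.21 for Msh3. Between genotypes 30.5% of all calls were higher under that centring, against 69.2% here, while 10 members were higher and 4 lower. Quantile normalization gave 5 higher and 14 lower members with DNA, against 10.9% and 17.5% of all genes. Between genotypes it gave 12 higher and 4 lower members, against 17% and 10.8% of all genes. All 21 members called with DNA and all 19 called between genotypes kept their direction under every alternative run.

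A pattern by array number ran through some members, 7 of them not called in either comparison. The array numbered 2 was the highest in all 3 groups for 10 of 34 members (29.4%), against 10.6% of all genes. These members were Chek1, Brca1, Lig1, Fancd2, Ung, Pms2, Brca2, Fanca, Fancc and Xrcc6, and their array 2 exceeded the mean of arrays 1 and 3 by between 0.37 (Xrcc6) and 1.69 (Chek1) on the log2 scale. Array 2 was also highest in all 3 groups for 24 of 27 replication and proliferation genes (88.9%), with a median excess of 1.36, against 0.24 over the members and 0.06 over all genes. The summed signal of the proliferation genes ranged from 13500 to 30800 in knockout cells given DNA, 8410 to 20200 in wild-type cells given DNA and 10500 to 36400 in media. Their part in the members' differences was not tested.

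**Figure D3:**
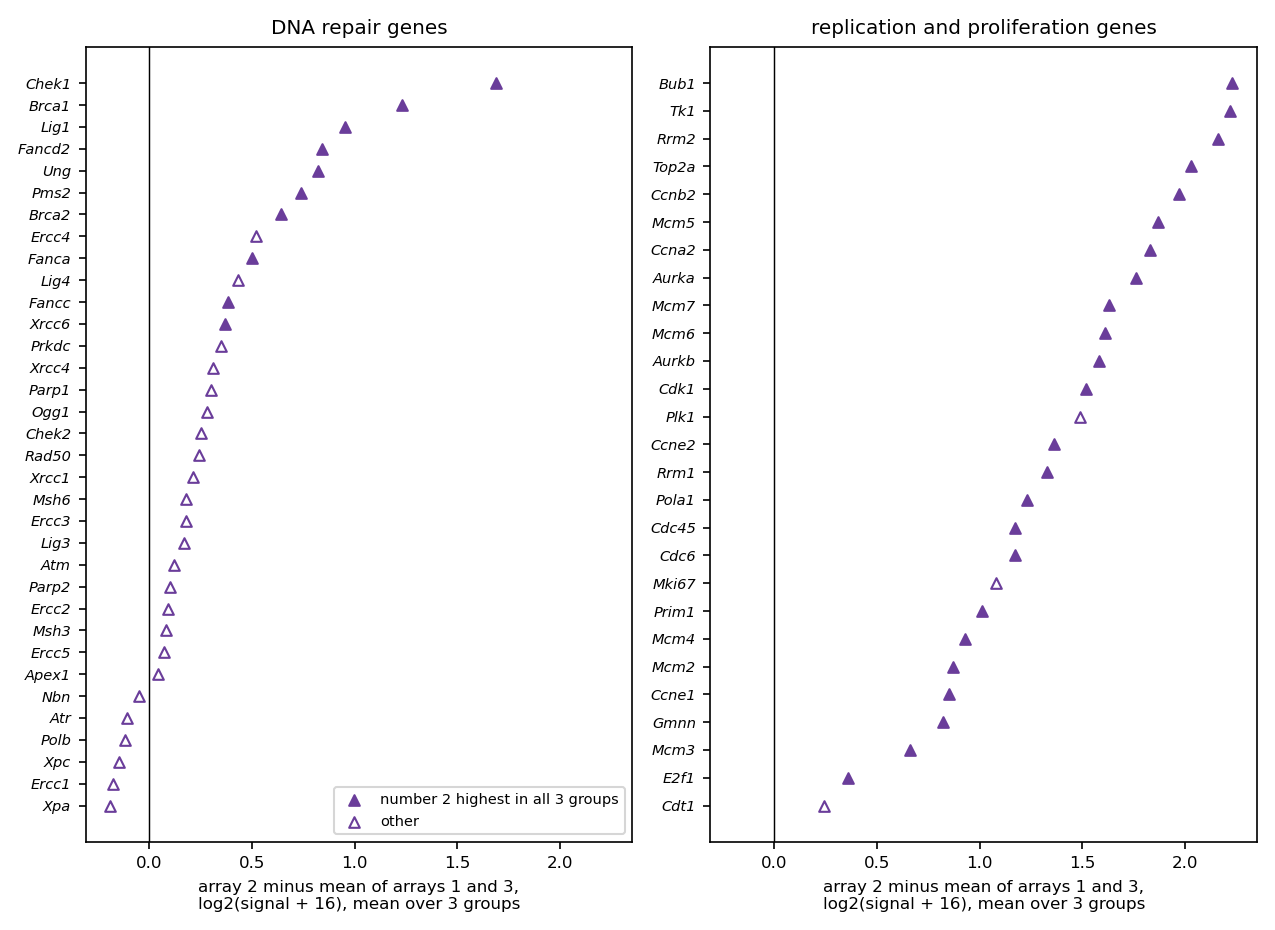
Signal of the array numbered 2 minus the mean of the arrays numbered 1 and 3, in log2. The left panel shows each tested member and the right panel each tested replication and proliferation gene. Markers are filled where array 2 was the highest in all 3 groups. Among the members Chek1 (1.69), Brca1 (1.23) and Lig1 (0.95) lie farthest right, and in the right panel Bub1 (2.23).

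The proliferation genes themselves gave 1 higher (3.7%) and 3 lower (11.1%) calls of 27 with DNA in wild-type cells, with a median of -0.80. Over all genes 9.94% were higher and 23.6% lower. Between genotypes 1 was higher and 1 lower (3.7% each), with a median of 0.94, against 21.8% and 9.73% of all genes. Cdt1, a licensing factor of replication, was higher with DNA by 1.04, while E2f1, Mcm3 and Gmnn were lower by -0.75, -0.96 and -1.15 in log2 difference. With the array number as a block 17 proliferation genes were lower and 1 higher with DNA, and 18 higher and 1 lower between genotypes. The members' counts with the block were 19 lower and 5 higher with DNA (31.6% and 13.2% of all genes), and 19 higher and 4 lower between genotypes (29.9% and 13% of all genes).

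Another list of 120 repair genes holds none of the members. Of 101 tested, 29 (28.7%) were lower and 3 higher with DNA in wild-type cells, with a median of -0.50, near the 23.6% of all genes called lower. Between genotypes 28 (27.7%) were higher and 4 lower, with a median of 0.44, near the 21.8% of all genes called higher. In knockout cells given DNA against media 0 of the 101 were called, and 6 had an unadjusted p under 0.05. At that unadjusted threshold 948 of all 12586 genes passed. With centring on the genes tested the calls in this list became 7 higher and 7 lower with DNA and 9 higher and 7 lower between genotypes. Over all genes 21.9% were then higher and 8.58% lower with DNA, and 8.68% higher and 19.8% lower between genotypes. The list medians were -0.07 and 0.04, against 0.24 and -0.20 over all genes. The counts of this list thus depended on the scaling. Its median stayed below that of all genes with DNA and above it between genotypes.

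**Figure D4:**
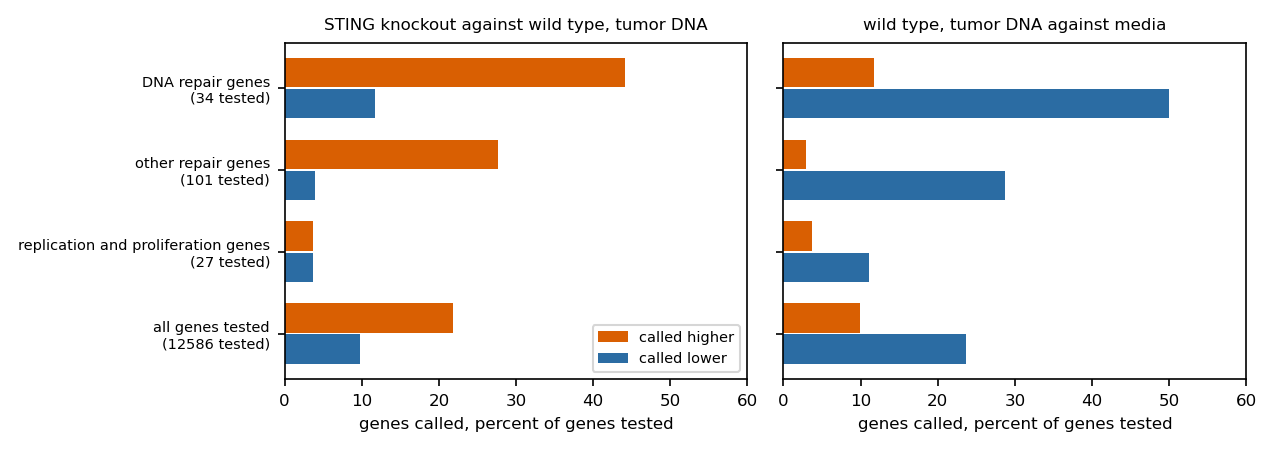
Percent of tested genes called higher (orange) and lower (blue) for the members, the other repair genes, the proliferation genes and all genes, with knockout against wild type under DNA on the left and wild-type DNA against media on the right. With DNA in wild-type cells the members' bar for lower calls stands above that of all genes (23.6%).

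Among damage-response mediators, Trp53bp1, which steers breaks to end joining, gave 826, 884 and 838 in knockout cells given DNA, 231, 450 and 405 in wild-type cells given DNA, and 1050, 970 and 841 in media. Trp53bp1 differed by -1.40 (SE 0.23, adjusted p = 0.00216) with DNA and by 1.25 between genotypes, and Mdc1 (-1.02 and 0.90), H2ax (-1.46 and 1.59) and Rad1 (-0.95 and 0.93) did likewise. Timeless, a fork protection factor, gave 313, 179 and 117 in knockout cells given DNA, 1440, 1700 and 1020 in wild-type cells given DNA, and 297, 380 and 168 in media. It thus stood with Atm and Fanca, with differences of 2.28 (SE 0.38, adjusted p = 0.00212) and -2.75 (SE 0.38, adjusted p = 0.000768). Parp3, a relative of Parp1 in break repair, gave 777, 849 and 779 in knockout cells given DNA, 1360, 1600 and 1230 in wild-type cells given DNA, and 282, 448 and 469 in media, so knockout cells lay between the other groups. Parp3 differed by 1.79 (SE 0.21, adjusted p = 0.000492) and -0.78 (adjusted p = 0.0171).

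Further called repair genes are named in part, with the difference with DNA first and that between genotypes after it. None is named from the other homologous recombination, end joining and mismatch genes. Of these, 4 of 20, 1 of 8 and 2 of 3 were lower with DNA and 0 higher, against 23.6% and 9.94% of all genes. Lower in knockout than in wild-type cells, and also not named, were 1 of 8 end joining and 1 of 14 damage bypass genes, against 9.73% of all genes. Uvssa, of transcription-coupled repair, gave 481, 474 and 439 in knockout cells given DNA, 171, 265 and 263 in wild-type cells given DNA, and 840, 620 and 709 in media, and differed by -1.58 (adjusted p = 0.000763) with DNA and 0.97 between genotypes. Ddb1, of lesion recognition, differed by -0.69 and 0.79, and the glycosylase Nthl1 by -2.23 and 1.74. The translesion polymerase genes Rev3l (-1.16 and 0.96) and Polh (-0.98 and 1.27) moved the same way, as did Alkbh2, a direct reversal enzyme (-1.06 and 1.60), and Fance, of the Fanconi core (-1.44 and 1.37). Samhd1, which degrades deoxynucleotides, was high with DNA instead: 7660, 3260 and 4150 in knockout cells given DNA, 25000, 18400 and 19900 in wild-type cells given DNA, and 7290, 5240 and 6140 in media. Samhd1 differed by 1.76 (SE 0.28, adjusted p = 0.00177) and -2.15 (adjusted p = 0.000598). Dnase2a, the lysosomal DNase, differed by -1.78 and 0.94.

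Some cell type markers were called. The shares over all genes, to be read beside these counts, were 9.94% higher with DNA in wild-type cells and 9.73% lower between genotypes. Summed dendritic cell marker signal was 61500 to 83200 in knockout cells given DNA, 88500 to 118000 in wild-type cells given DNA and 74300 to 86900 in media, and 2 of 8 markers (Cd86 and Ccr7) were higher with DNA in wild-type cells. Summed macrophage marker signal was 58400 to 74100 in knockout cells given DNA, 79300 to 98300 in wild-type cells given DNA and 60200 to 71800 in media, with 2 of 6 markers higher with DNA in wild-type cells and 2 lower between genotypes. Mast cell and basophil markers summed to 400 to 658 in knockout cells given DNA, 818 to 1830 in wild-type cells given DNA and 683 to 1430 in media, and 3 of 5 (Fcer1a, Cpa3 and Mcpt8) were lower in knockout than in wild-type cells under DNA. Neutrophil markers summed to 35000 to 41800 in knockout cells given DNA, 24900 to 91200 in wild-type cells given DNA and 17100 to 71200 in media, and 1 of 7 (Mpo) was lower between genotypes. T and NK cell markers summed to 105 to 123 in knockout cells given DNA, 74.7 to 150 in wild-type cells given DNA and 87.8 to 102 in media, with 0 of 5 past the filter. B cell markers summed to 148 to 307 in knockout cells given DNA, 360 to 2280 in wild-type cells given DNA and 286 to 1250 in media, with 0 of 3 called. Erythroid markers summed to 74.3 to 245 in knockout cells given DNA and 138 to 306 in wild-type cells given DNA. In media they summed to 112 to 181, and 0 of 2 tested were called. Their part in the members' differences was not tested.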

How the data were processed

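RNA of 9 samples was hybridised to 1-colour Affymetrix arrays, 1 array each, from biotin-labelled cRNA, per the labels' protocols. The deposited values are linear intensity (MAS5 signal) per probe set, per the submitters' processing notes; the MAS5 version, detection calls and scaling target were not given in the sources used here. Computed here: log2(signal + 16) and a fit over all 9 arrays in limma 3.58.1 (R 4.3.3) with an intensity trend, on the 12586 genes whose probe set, the one of highest mean with a single symbol, lay above the 40th percentile of mean signal. P-values were adjusted by Benjamini-Hochberg over all genes. The 3 comparisons were wild-type DNA against media, knockout against wild type under DNA, and knockout under DNA against wild-type media. Of 45101 probe sets, 34945 had 1 symbol, 932 several and 9160 none, and 64 were controls. The number of arrays limits the precision.

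The members and the other lists were chosen with earlier results of these data known. All members are named; those called get all 9 arrays where among the 14 of smallest adjusted p in a comparison, and from other lists the called genes of smallest adjusted p, at most 4 in each direction, could be named. The array numbers in the titles behave as pairs, though the labels do not state a pairing. Deviations from the group means correlated at 0.17 to 0.49 in all 9 same-numbered pairs. They correlated at -0.42 to 0.14 in differently numbered pairs across groups and at -0.75 to -0.16 between arrays of a group. Deviations cancel out within a group, so negative values among differently numbered arrays are partly built in. On simulated data (12586 genes), 50 genes were changed at each size, with noise drawn independently for each array. For wild-type DNA against media, 36% of genes changed by 1 log2 unit and 82% of those changed by 2 were recovered. For the genotype comparison these were 42% and 84%. Far more genes were called in the real data, and its arrays correlated by number, so these rates need not hold there.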

Additional observations from a re-analysis of the deposited data

How the results depend on the processing

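With DNA in wild-type cells the count of higher members (4) was 2 with the mean of a gene's probe sets and ranged from 1 to 4 when arrays were left out. The count of lower members (17) ranged from 9 to 18 in the leave-outs, the lowest without the arrays numbered 3. Calls over all genes were also fewer in that leave-out, with 8.05% lower and 3.81% higher. Between genotypes the higher members (15) ranged from 9 to 17 and the lower ones (4) from 2 to 4 in the leave-outs. Without the arrays numbered 3, 6.75% of all genes were called higher and 4.2% lower between genotypes. No called member reversed its direction under any alternative, but centring on the genes tested turned the median of all genes and the lean of their calls (-0.20 to 0.24 and 29.6% to 71.9% higher with DNA). Of 22 alternatives, 8 of the 21 members called with DNA (Rad50, Chek2, Xrcc6, Lig3, Parp1, Apex1, Msh6 and Xpc) and 8 of the 19 called between genotypes (the first 7 with Msh3 in place of Xpc) kept their call in all.

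The replicate block, which treats equal array numbers as pairs, gave 19 lower and 5 higher members with DNA, against 17 and 4 without it. Between genotypes it gave 19 higher and 4 lower, against 15 and 4 without it. Knockout cells against media stayed at 0 and 0. The calls it added are given beside the genes concerned.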
